A study of Mus musculus with 25 samples.

Results

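The transcripts of 6 zinc finger proteins that control mRNA decay were measured by RNA-seq in macrophages, namely Zfp36, Zfp36l1, Zfp36l2, Zc3h12a, Zc3h12c and Rc3h1. They were picked by gene symbol, as representatives of the tristetraprolin (TTP), Regnase and Roquin families, and make up 6 of the 24411 gene symbols counted in every sample. The study compared macrophages pushed to a pro-inflammatory state (M1) with macrophages pushed to an alternative state (M2). It used bone marrow-derived macrophages (BMDMs), cultured out of C57BL/6 mouse marrow over 4 days (25 ng/ml M-CSF), and RAW264.7, an established mouse macrophage line. The 21 BMDM samples form 7 groups of 3. These are an unstimulated control labelled as a 4 h culture, cells primed with 100 U/ml IFN-γ and then given 100 ng/ml LPS for 1, 4, 12 or 24 h (IFN-LPS), and cells that received 10 ng/ml of either IL-4 or IL-13 over 12 h. RAW264.7 contributed 4 samples in 2 groups, a control and a group given 100 ng/ml LPS for 4 h without IFN-γ. No sample carries a mutation or transgene by its labels. BMDMs stimulated with LPS without IFN-γ were not analysed here, so the effects of the 2 agents cannot be told apart in the BMDMs. The single control serves every BMDM comparison against control. By its label it matches only the 4 h IFN-LPS group in time. In the other comparisons against it, stimulus and time in culture cannot be told apart. The RAW264.7 samples come from 1 cell line, which the study traces to Balb/c mice that carried Abelson murine leukemia virus.

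Short-lived inflammatory transcripts carry decay signals in their 3′ ends, and these zinc finger proteins read the signals. TTP (encoded by Zfp36) and its relatives BRF1 (Zfp36l1) and BRF2 (Zfp36l2) bind AU-rich elements and bring in the CCR4-NOT deadenylase, whereas the RNase Regnase-1 (Zc3h12a), its relative Zc3h12c and the RING finger protein Roquin-1 (Rc3h1) act at stem-loops. In macrophages, transcripts of Tnf, Il6, Il12b and many chemokines are well-known targets, and the p38-activated kinase MK2 (Mapkapk2) inhibits TTP. The protease MALT1 can cleave Regnase-1 and Roquin-1, and its activity was not measured in these cells.

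The depth allowed 1502618 to 2532496 counts per sample on genes other than Rn45s, a ribosomal precursor gene that took 20.1% to 39.8% of all gene counts and was left out. Levels are given as CPM, a gene's counts relative to the library's total of those remaining counts, scaled by TMM (trimmed mean of M values), which evens out differences in library composition. Without that scaling, the median log2 fold change of all genes against control shifted by -0.19 (1 h), -0.53 (4 h), -0.31 (12 h) and -0.22 (24 h) for IFN-LPS and by -0.18 in RAW264.7, and the share of called genes that were higher went from 56.6% to 35.6%, from 50.4% to 24.3%, from 50.6% to 31.1%, from 52.8% to 36.0% and from 54.0% to 30.4%. Changes are therefore relative to the bulk of the transcripts, and a member's call that did not hold without the scaling is named beside it. All 6 macrophage markers examined were detected in every group, and Cd3e, Cd3g, Cd8a, Ms4a1, Hba-a1 and Hbb-bs were at 0 in every sample, while Cd4, the 1 T cell marker detected, was at 2.10 to 12.7 CPM in BMDMs. The fibroblast genes Col1a1, Col1a2 and Pdgfra summed to 23.5 to 87.7 CPM in BMDMs and to 0 in RAW264.7, and 4 neutrophil genes summed to 13.03 to 22.5 CPM in control BMDMs against 30.2 to 43.5 CPM at 1 h and 37.3 to 50.0 CPM at 4 h. The part of such cells in the results was not tested, and in these bulk samples fewer cells expressing a gene and less RNA per cell cannot be told apart.

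On the mm10 build, the genes lie at chr7:28376784-28379228 (Zfp36), chr12:80107760-80113013 (Zfp36l1), chr17:84183924-84187947 (Zfp36l2), chr4:125118414-125127881 (Zc3h12a) and chr9:52109569-52168730 (Zc3h12c), all on the minus strand, and at chr1:160906411-160974976 on the plus strand (Rc3h1). They are protein-coding genes of 2 exons in the TTP family, 6 exons in the Regnase pair and 20 exons in Rc3h1, by the transcripts matched to RefSeq. Promoters from RefSeq (GRCm38.p6, 250 bases before to 50 bases after the start) were at hand for 5 of the 6 genes. They were searched on both strands for 7 motifs, of factors that act downstream of LPS, IFN-γ and IL-4: the kappaB consensus, the GAS (TTCNNNGAA), the STAT6 site, the ISRE core, AP-1 (TGANTCA), the CRE (TGACGTCA) and the CArG box, the element bound by serum response factor. The 140 bases before the start are shown for the genes with a match there, with the matched letters in capitals. The window of Zfp36 (chr7:28379229-28379368, minus strand) holds a CArG box and a GAS, that of Zfp36l1 (chr12:80113014-80113153, minus strand) an AP-1 match and that of Rc3h1 (chr1:160906271-160906410, plus strand) an AP-1 match.
Zfp36: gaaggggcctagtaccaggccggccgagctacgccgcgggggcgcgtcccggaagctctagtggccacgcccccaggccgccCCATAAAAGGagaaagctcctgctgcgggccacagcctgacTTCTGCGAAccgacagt
Zfp36l1: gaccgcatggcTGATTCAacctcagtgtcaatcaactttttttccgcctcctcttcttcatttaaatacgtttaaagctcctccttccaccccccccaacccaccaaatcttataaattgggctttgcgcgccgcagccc
Rc3h1: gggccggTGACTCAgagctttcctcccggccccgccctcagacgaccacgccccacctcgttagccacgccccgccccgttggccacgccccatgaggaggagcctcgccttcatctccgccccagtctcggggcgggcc
In Zfp36 the CArG box spans positions -58 to -49 and the GAS positions -17 to -9 from the start. A CArG box is found in 1.63% of the 32851 promoters of the same length, a GAS in 8.30% and an AP-1 match in 7.81%. The first of 2 promoters of Zc3h12c holds a kappaB match at positions -236 to -227 on the opposite strand, a motif found in 8.46% of promoters, and the promoter of Zc3h12a holds none of the 7 motifs. These matches describe the letters only.

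**Figure D1:**
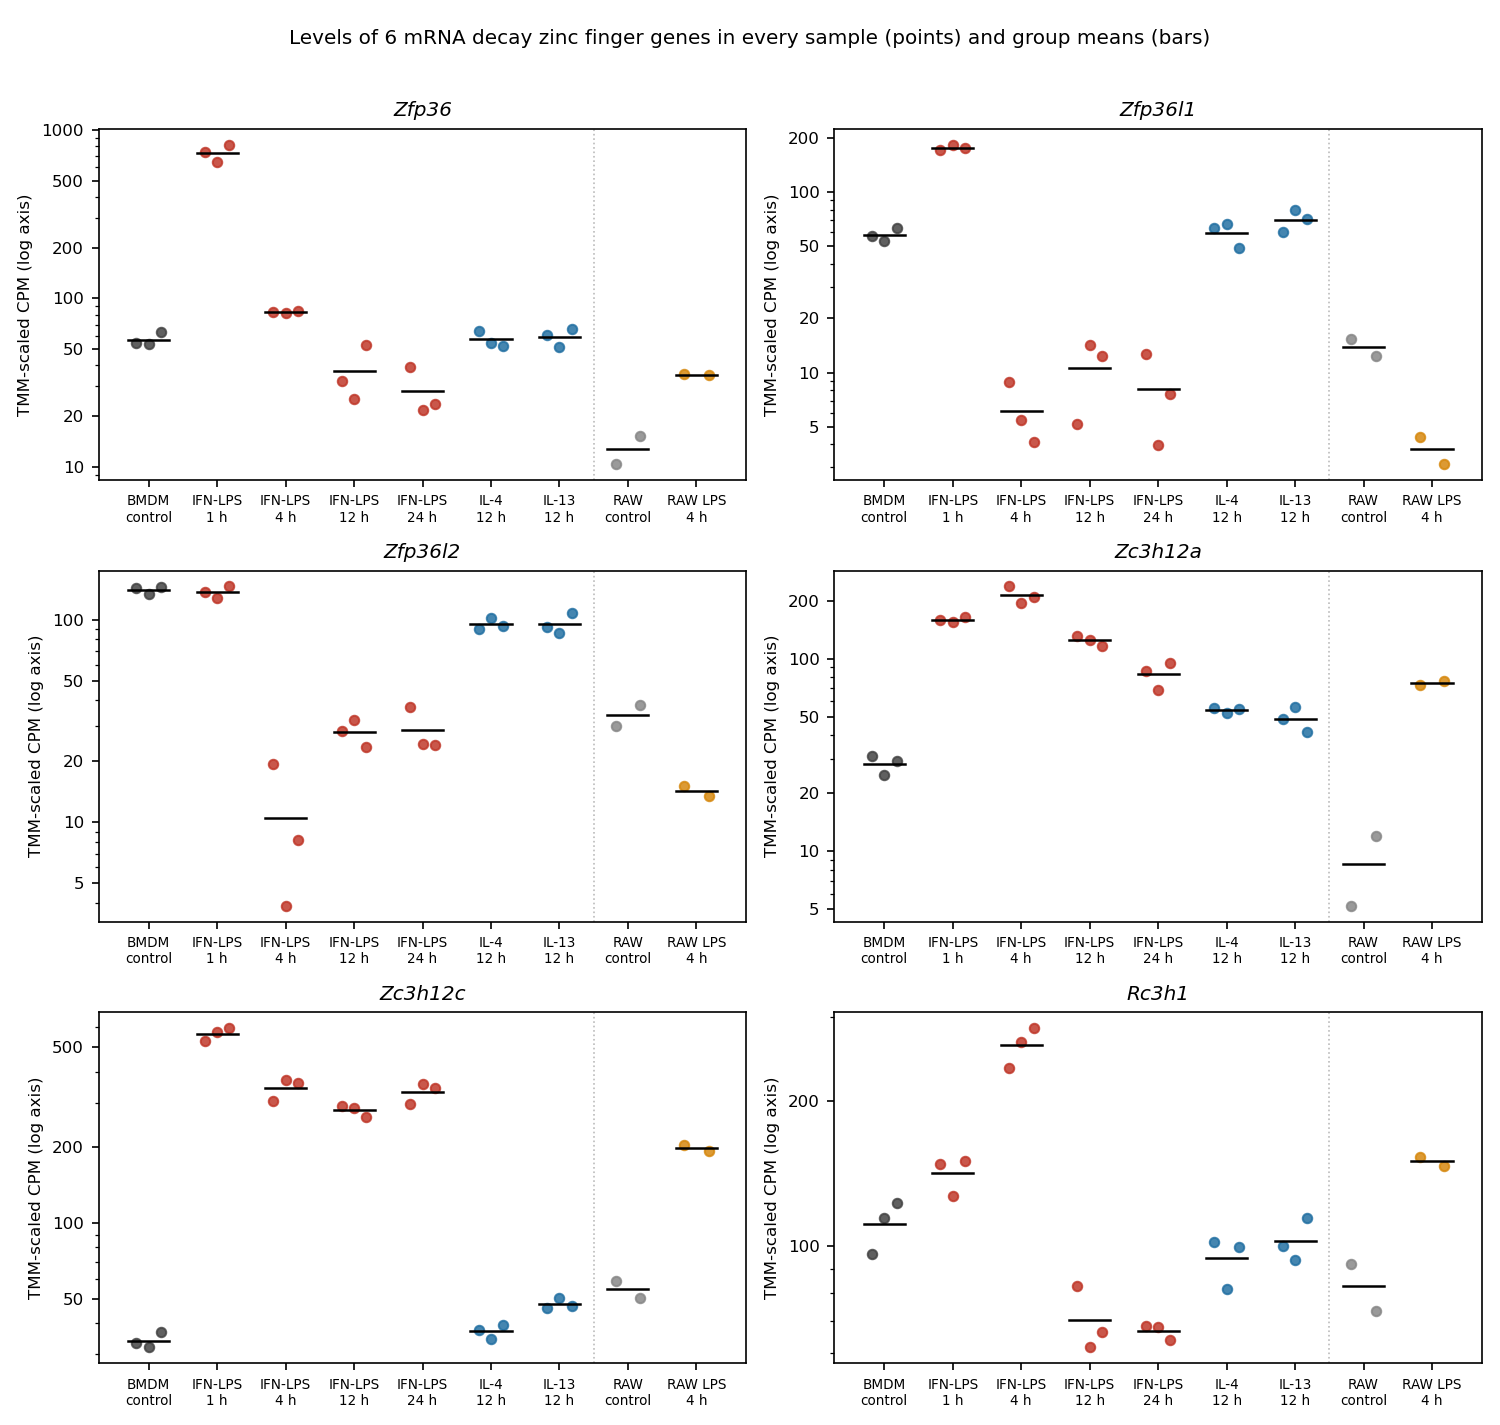
Level of each of the 6 genes (TMM-scaled CPM, log axis) in every sample, by condition; points are samples, horizontal bars are group means, and the dotted line separates BMDMs from RAW264.7. Zfp36 and Zfp36l1 were highest after 1 h of IFN-LPS, Rc3h1 and Zc3h12a after 4 h, Zc3h12c stayed far above its control level of 34.1 CPM to 24 h, and Zfp36l2 was highest in control BMDMs.

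The time course asked how IFN-γ-primed, LPS-stimulated BMDMs differed from control BMDMs at each time. At 1 h, 4 of the 6 genes rose and 0 fell by edgeR's quasi-likelihood test (Benjamini-Hochberg adjusted p of at most 0.01). At that time 26.0% of the 9568 genes tested were called, 14.7% higher and 11.3% lower. At 4 h, 3 rose and 2 fell, where 51.5% of all genes were called (26.0% higher, 25.6% lower). At 12 h, 2 rose and 4 fell, where 47.3% of all genes were called (23.9% higher, 23.4% lower). At 24 h the count was again 2 and 4, where 45.2% were called (23.9% higher, 21.3% lower), so that a called gene was no rarity from 4 h on. With the fold cutoff that the study used for this stimulus added (1.5 or more on the log2 scale, in either direction), the members past it numbered 4 at 1 h (7.12% of all genes), 4 at 4 h (22.8%), 4 at 12 h (17.3%) and 4 at 24 h (14.9%). The median log2 fold change of the 6 genes went from 2.01 at 1 h and 0.83 at 4 h to -0.69 at 12 h and -0.88 at 24 h, and that of all genes lay between -0.07 and 0.02.

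Zfp36, the gene of TTP, rose sharply at 1 h and was back near its control level at 4 h. Control BMDMs held 54.2, 53.7 and 63.1 CPM, and the 1 h samples 742, 646 and 819 CPM. The 1 h samples were all far above the control range. The log2 fold change at 1 h was 3.66 (SE 0.156), or 12.6-fold, with an adjusted p of 1.04e-16. At 4 h the samples held 83.2, 82.3 and 84.5 CPM. These lay above the 3 controls, but the difference of 0.49 on the log2 scale did not pass the test (95% interval 0.11 to 0.88, adjusted p = 0.0259), and without TMM scaling it was -0.04. The later samples held 32.3, 25.3 and 52.9 CPM at 12 h and 39.1, 21.9 and 23.6 CPM at 24 h. All 6 of these lay below the lowest control sample. The log2 fold change was -0.67 at 12 h (SE 0.203, adjusted p = 0.00684) and -1.03 at 24 h (SE 0.203, adjusted p = 0.000116). The call at 12 h did not hold in 9 of the 15 fits without 1 sample, namely those without control replicate 1, 2 or 3, without 1 h replicate 1, without 4 h replicate 1, 2 or 3 and without 12 h replicate 1 or 2. In these the log2 fold change of Zfp36 lay between -0.69 and -0.46, with adjusted p from 0.0115 to 0.0467. The difference at 4 h, in turn, was called in the fits without 12 h replicate 2 or 3 or 24 h replicate 1 (0.50, adjusted p from 0.00218 to 0.00881). From 1 h to 4 h Zfp36 fell by 3.17 on the log2 scale (adjusted p = 1.7e-15) and from 4 h to 12 h by 1.16 (adjusted p = 3.78e-05).

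Zfp36l1, the gene of BRF1, rose at 1 h and then fell far below its starting level. Its levels were 56.9, 53.7 and 63.6 CPM in control BMDMs and 171, 183 and 175 CPM at 1 h. The log2 fold change at 1 h was 1.57 (SE 0.140, adjusted p = 1.09e-12). At 4 h the samples held 8.85, 5.43 and 4.10 CPM, from 10, 7 and 5 counts. All 3 lay far below the control range, with a log2 fold change of -3.30 (SE 0.277, adjusted p = 5.13e-14), and the fall from 1 h to 4 h was 29.3-fold. The gene stayed low, at 5.20, 14.3 and 12.4 CPM at 12 h and 12.7, 3.98 and 7.58 CPM at 24 h. The samples of 4, 12 and 24 h overlapped each other, and none reached the control range. The log2 fold changes against control were -2.51 at 12 h and -2.84 at 24 h (adjusted p = 4.29e-13 and 7.32e-15).

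Zfp36l2, the gene of BRF2, had the highest level per kb of the 3 TTP family genes in control BMDMs and showed no early rise. Control samples held 143, 133 and 144 CPM, and 1 h samples 137, 127 and 146 CPM. The ranges overlapped, and the difference was -0.06 on the log2 scale (95% interval -0.34 to 0.21, adjusted p = 0.767). At 4 h the level was 19.5, 3.88 and 8.20 CPM, from 22, 5 and 10 counts. The 4 h samples were spread widely among themselves, but all lay below every control sample. The gene fell 14.2-fold from control to 4 h, a log2 fold change of -3.83 (SE 0.229, adjusted p = 5.21e-17). At 12 h it stood at 28.3, 31.8 and 23.5 CPM and at 24 h at 37.1, 24.4 and 24.0 CPM. It had risen again from 4 h to 12 h by 1.45 on the log2 scale (adjusted p = 0.000144), to a level still 5.19-fold under control.

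Compared per kb of mRNA, the make-up of the TTP family turned over. In control BMDMs, Zfp36l2 gave 43.4% ± 1.56 (SD, n = 3) of the summed level per kb, Zfp36 35.3% ± 1.22 and Zfp36l1 21.3% ± 0.444. At 1 h Zfp36 alone gave 80.9% ± 1.71 and at 4 h 90.6% ± 5.07, while Zfp36l2 gave 7.54% and 5.55%. Zfp36 thus was the main transcript of the family at both times. The summed level per kb was 91.5 ± 6.03 CPM per kb in control BMDMs and 515 CPM per kb at 1 h. It was 52.2 CPM per kb at 4 h, 32.4 at 12 h and 26.7 at 24 h. At 24 h Zfp36 still made up 59.6% ± 0.680 and Zfp36l2 30.6% ± 2.55. These shares rest on mRNA lengths of 1.765 kb (Zfp36), 2.984 kb (Zfp36l1) and 3.53 kb (Zfp36l2), taken from GENCODE exons within the RefSeq gene, since the annotation release used for counting was not given in the sources used here.

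**Figure D2:**
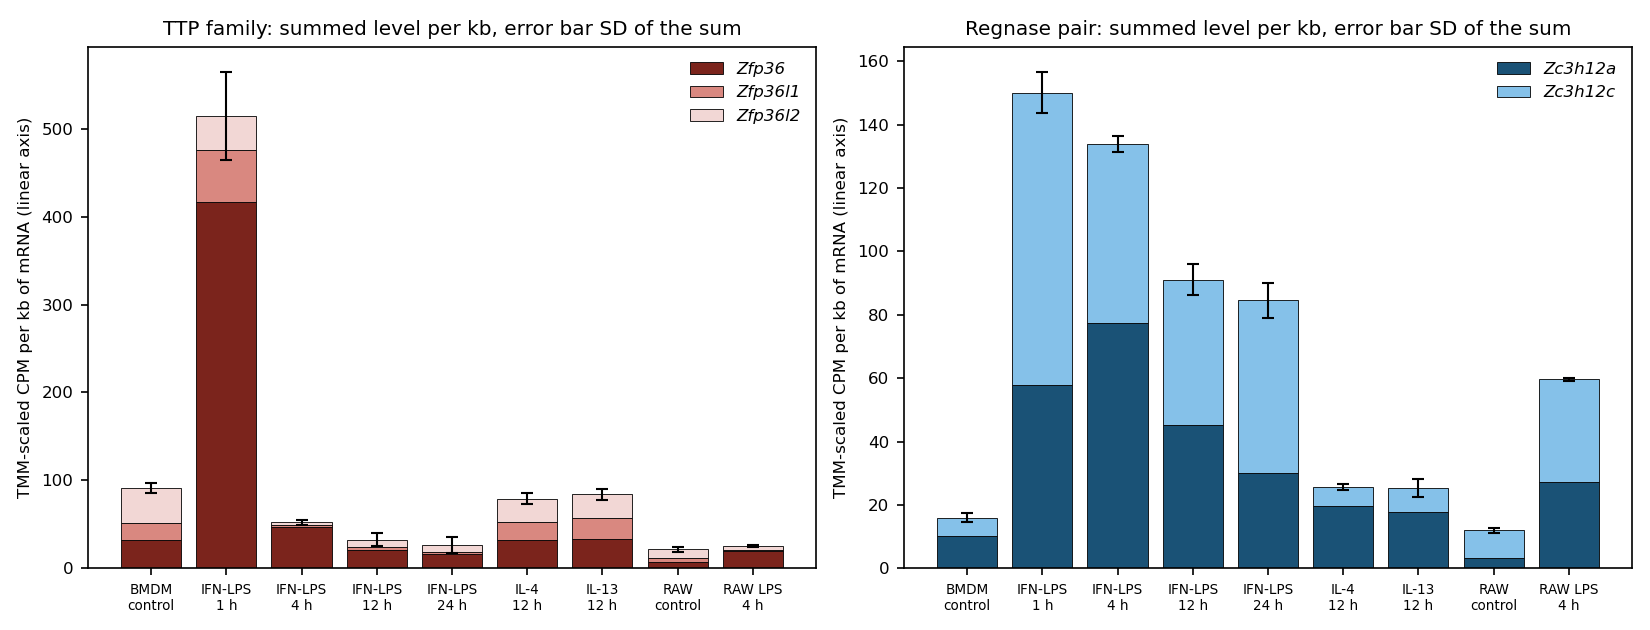
Summed level of the TTP family (left) and of Zc3h12a and Zc3h12c (right) in each condition, as stacked bars of the mean TMM-scaled CPM per kb of mRNA on linear axes from 0; the error bar is the SD of the sum over samples. The TTP family sum peaked at 1 h (515 CPM per kb) and fell below control from 4 h on, while the Regnase pair stayed above its control sum of 15.9 CPM per kb at all 4 times.

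Zc3h12a and Zc3h12c rose at 1 h and stayed above control to 24 h. Zc3h12a, the gene of the RNase Regnase-1, held 31.1, 25.0 and 29.4 CPM in control BMDMs and 158, 156 and 164 CPM at 1 h. At 4 h it reached 237, 194 and 209 CPM. The samples of both times lay far above the control range, and those of 4 h above those of 1 h. The log2 fold change was 2.45 (SE 0.137) at 1 h and 2.84 (SE 0.138) at 4 h, with adjusted p of 1.79e-20 and 2.02e-23. The step from 1 h to 4 h was 0.39 (adjusted p = 0.00256), and this call did not hold without TMM scaling (0.06, adjusted p = 0.69). Without 1 sample the step kept its direction but lost its call in 3 fits, with 0.39 and 0.39 without replicate 1 or replicate 2 of 1 h (adjusted p = 0.0106 and 0.0109) and 0.32 without replicate 1 of 4 h (adjusted p = 0.0249). The later samples were at 131, 125 and 117 CPM at 12 h and at 86.5, 68.6 and 94.7 CPM at 24 h. The 24 h samples were below all 12 h samples and above all controls. Zc3h12a fell from 4 h to 12 h by 0.77 and from 12 h to 24 h by 0.53 on the log2 scale (adjusted p = 2.01e-07 and 0.000563), the latter call being lost without the 24 h sample at 68.6 CPM (-0.41, adjusted p = 0.0153).

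Zc3h12c, a related RNase gene, had the largest fold change against control of the 6 genes in this time course. It rose from 33.3, 32.0 and 36.9 CPM in control BMDMs to 528, 575 and 596 CPM at 1 h. That is 16.2-fold, a log2 fold change of 4.02 (SE 0.120, adjusted p = 1.66e-31). At 4 h its level was 305, 371 and 361 CPM, at 12 h 292, 288 and 264 CPM and at 24 h 298, 356 and 345 CPM. In contrast to Zfp36, every sample from 4 h to 24 h stayed far above the control range. The log2 fold changes against control were 3.29, 2.998 and 3.28, with adjusted p from 4.4e-28 to 2.89e-26. The step down from 1 h to 4 h was -0.74 (adjusted p = 6e-09), and the steps from 4 h to 12 h (-0.29, adjusted p = 0.0139) and from 12 h to 24 h (0.28, adjusted p = 0.0257) did not pass the test. The former was called without 4 h replicate 1 (-0.38, adjusted p = 0.00203), and the latter without 24 h replicate 1 (0.35, adjusted p = 0.00884) and without TMM scaling (0.37, adjusted p = 0.00253).

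Per kb, Zc3h12a was the larger of the pair in control BMDMs, with 10.3 ± 1.15 CPM per kb against 5.56 ± 0.413 (SD, n = 3). The order was the other way round at 1 h, when Zc3h12c reached 92.3 ± 5.69 CPM per kb and Zc3h12a 57.8 ± 1.52. At 4 h Zc3h12a was again higher, at 77.5 ± 7.97 against 56.3 ± 5.83 CPM per kb. At 12 h the 2 genes gave 49.6% and 50.4% of their sum, and at 24 h Zc3h12c gave 64.3% ± 4.99.

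Rc3h1, the gene of Roquin-1, rose at 4 h and was below its control level at 12 and 24 h. Control BMDMs held 96.6, 115 and 123 CPM, and 1 h samples 148, 127 and 150.2 CPM. The 1 h samples lay above the controls, but the difference of 0.32 (95% interval 0.09 to 0.56) did not pass the test (adjusted p = 0.0251). At 4 h the level was 235, 265 and 284 CPM, and the gene had risen 2.26-fold (log2 fold change 1.18, SE 0.114, adjusted p = 1.19e-12). It then fell from 4 h to 12 h by 1.88 on the log2 scale (adjusted p = 6.92e-18). The 12 h samples held 82.6, 61.7 and 66.5 CPM and the 24 h samples 68.4, 68.1 and 64.0 CPM, all below every control. The log2 fold changes were -0.71 at 12 h and -0.74 at 24 h (adjusted p = 5.44e-06 and 1.33e-06). Its paralog Rc3h2 was at 87.2 CPM in control BMDMs and 133 CPM at 4 h, a log2 fold change of 0.56 (adjusted p = 0.000259) that was 0.02 without TMM scaling, and it fell at 24 h to 55.8 CPM (-0.65, adjusted p = 6.52e-05).

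Between successive times, 2 members rose and 4 fell from 1 h to 4 h, where 38.9% of all genes were called (19.8% higher, 19.1% lower). From 4 h to 12 h 1 rose and 3 fell, with 35.9% of all genes called (16.7% higher, 19.2% lower). From 12 h to 24 h 0 rose and 1 fell, with 14.2% of all genes called (5.31% higher, 8.90% lower). Past the fold cutoff were 3, 1 and 0 members in these steps, and 14.0%, 9.66% and 1.29% of all genes. The 12 h and 24 h levels of Zfp36, Zfp36l1, Zfp36l2 and Rc3h1 overlapped. The 24 h libraries differed from the control and 12 h libraries in the antisense share of Rn45s counts, given with the cytokine results below. In comparisons of 24 h with these groups, that library difference cannot be told apart from the treatment. Of the other paralogs, Zc3h12d fell at 4, 12 and 24 h (13.4 CPM in control and 4.74, 6.62 and 3.75 CPM). Zc3h12b was too low to test, and Zfp36l3 had 0 counts in the 21 BMDM libraries, which allows a level of up to 0.0783 CPM over them (3 counts; counting error only).

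**Figure D3:**
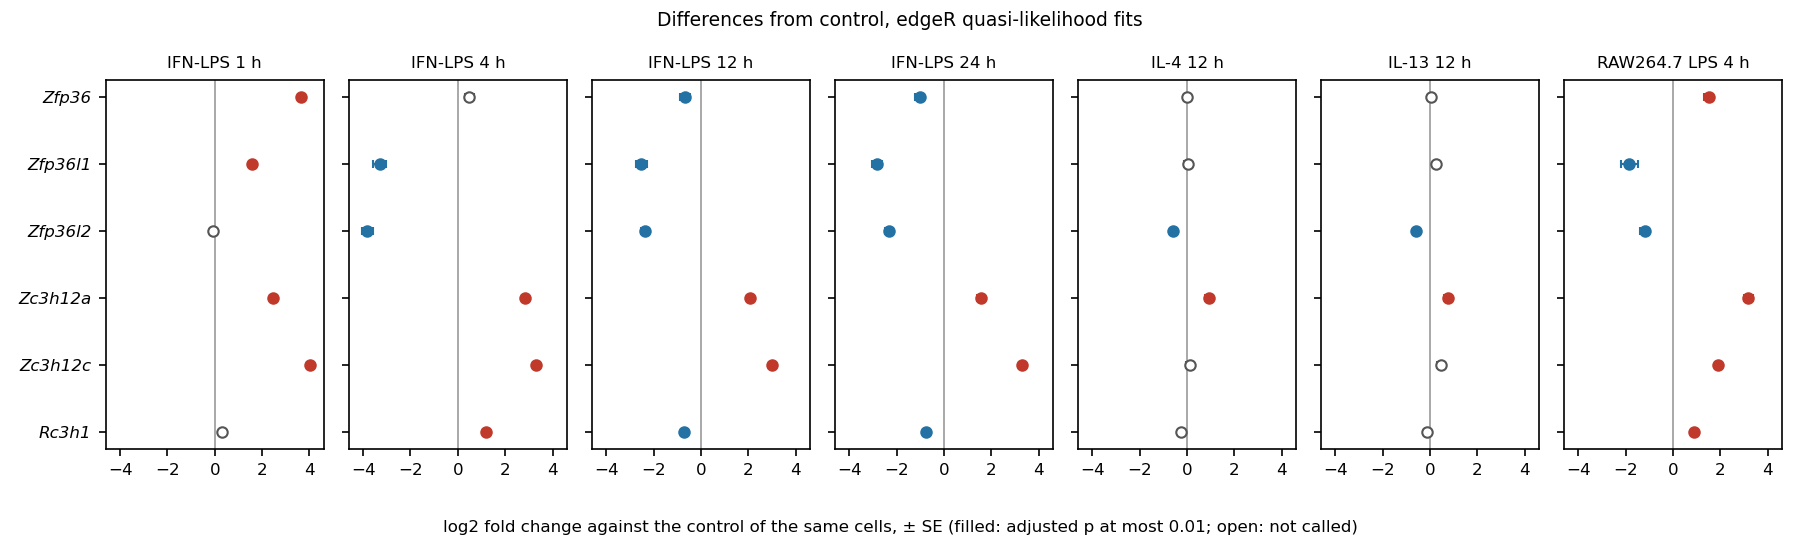
log2 fold change of the 6 genes against the control of the same cells (point) with its standard error (bar), for each treatment; filled points passed an adjusted p of 0.01 (red higher, blue lower) and open points did not. Zfp36l1 and Zfp36l2 fell in IFN-LPS-treated BMDMs at 4, 12 and 24 h and in LPS-treated RAW264.7, while Zc3h12a and Zc3h12c rose in these 4 groups and at 1 h of IFN-LPS.

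M2 stimuli were compared with the same control BMDMs in a fit of 9 samples. The control is labelled 4 h and the cytokine groups 12 h, so cytokine and time in culture cannot be told apart here. With IL-4, Zc3h12a rose and Zfp36l2 fell, where 7.63% of the 9252 genes tested were called (4.38% higher, 3.25% lower). With IL-13, 1 member rose and 1 fell as well, and they were again Zc3h12a and Zfp36l2, where 10.1% of all genes were called (5.61% higher, 4.49% lower). Past the study's fold cutoff for these cytokines (0.7 on the log2 scale) was Zc3h12a in both, as were 3.86% and 5.36% of all genes. The 2 comparisons share their control samples. Zc3h12a held 55.5, 52.3 and 54.9 CPM with IL-4 and 48.3, 55.8 and 41.5 CPM with IL-13. All 6 samples lay above the control range of 25.0 to 31.1 CPM, with log2 fold changes of 0.91 (SE 0.156, adjusted p = 1.39e-05) and 0.75 (SE 0.158, adjusted p = 0.000335). Zfp36l2 held 89.6, 102 and 93.0 CPM with IL-4 and 92.1, 85.4 and 108 CPM with IL-13. All 6 were below the control range of 133 to 144 CPM. The log2 fold changes were -0.57 (SE 0.110, adjusted p = 0.000101) and -0.58 (SE 0.109, adjusted p = 5.7e-05).

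The other 4 genes did not pass the test with either cytokine. Zfp36 stayed within 52.5 to 64.4 CPM with IL-4 and 51.2 to 65.8 CPM with IL-13. Its 95% intervals on the log2 scale were -0.28 to 0.27 and -0.24 to 0.30. Zfp36l1 ran from 48.9 to 66.7 CPM with IL-4 and from 59.8 to 79.8 CPM with IL-13 (intervals -0.25 to 0.31 and -0.01 to 0.53). Zc3h12c was at 37.7, 34.5 and 39.4 CPM with IL-4 and at 46.0, 50.1 and 46.6 CPM with IL-13. With IL-13 its samples lay above all controls, but the log2 fold change of 0.46 (interval 0.16 to 0.76) did not pass the threshold (adjusted p = 0.0244). Rc3h1 overlapped its control range with both cytokines. The share of Rn45s counts on the antisense strand, a property of the libraries, ran from 0.0386% to 0.122% for the 12 samples of control and 1, 4 and 12 h IFN-LPS but from 0.00603% to 0.0214% for the 9 of IL-4, IL-13 and 24 h IFN-LPS. The ranges of these sets of libraries did not overlap. In the comparisons of either cytokine with control, this library difference therefore cannot be told apart from the treatment, and its part was not tested. The same holds for 24 h IFN-LPS against control or 12 h IFN-LPS, and for 12 h IFN-LPS against IL-4 or IL-13. Control (0.0386% to 0.0543%), 4 h (0.0665% to 0.0674%) and 12 h IFN-LPS (0.0827% to 0.122%) were also apart, while 1 h (0.0456% to 0.0594%) overlapped control. The limit therefore extends to 4 h and 12 h against control and to every step between successive times. RAW264.7 ran from 0.0199% to 0.0236% in control and from 0.0249% to 0.0283% after LPS. The limit thus covers LPS in RAW264.7 and the resting cells too.

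IL-13 and IL-4 were compared directly, and no member passed the test, where 0.108% of all genes did (0.0865% higher, 0.0216% lower, and 0.0649% also past the fold cutoff). At an unadjusted p under 0.05, 1 member differed, and DESeq2 called 0. The gene was Zc3h12c, 0.35 higher with IL-13 on the log2 scale (interval 0.05 to 0.65, adjusted p = 0.582), with no overlap between the IL-13 and IL-4 samples. For Zfp36l2 the interval of the difference was -0.23 to 0.23, and for Zc3h12a the difference was -0.17 (-0.45 to 0.12).

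The M1 and M2 states were compared at the same time, 12 h, in a fit of all 21 BMDM samples. Zc3h12a and Zc3h12c were higher with IFN-LPS than with IL-4 and the other 4 genes were lower, where 43.0% of the 9841 genes tested were called (22.5% higher, 20.6% lower). The count against IL-13 was likewise 2 higher and 4 lower, with 43.1% of all genes called (22.2% higher, 20.9% lower), and both comparisons share the IFN-LPS samples. In both, the stimulus cannot be told apart from the library difference in the antisense share of Rn45s counts described above. Past a log2 difference of 1.5 were 3 members in each, Zfp36l1, Zfp36l2 and Zc3h12c, and 16.5% of all genes. Zc3h12c stood at 264 to 292 CPM with IFN-LPS against 34.5 to 39.4 CPM with IL-4, a log2 difference of 2.92 (SE 0.120, adjusted p = 2.29e-30), and that against IL-13 was 2.56 (SE 0.115). Zfp36l1 stood at 5.20 to 14.3 CPM against 48.9 to 66.7 CPM with IL-4, a log2 difference of -2.501 (SE 0.225, adjusted p = 2.78e-14), and -2.74 against IL-13. Zfp36l2 differed by -1.76 from IL-4 and by -1.77 from IL-13, and Zc3h12a by 1.202 and 1.36. The ranges of these 4 genes did not overlap. Those of Zfp36 overlapped in both comparisons, with differences of -0.62 (adjusted p = 0.00562) and -0.67 (adjusted p = 0.00255). Those of Rc3h1 overlapped with IL-4 (-0.42, adjusted p = 0.00601) but not with IL-13 (-0.54, adjusted p = 3e-04). The calls of Zfp36, and that of Rc3h1 against IL-4, depended on single samples. That of Zfp36 against IL-4 was lost without 12 h IFN-LPS replicate 1 or 2, IL-4 replicate 1 or IL-13 replicate 1 (log2 differences from -0.62 to -0.42, adjusted p from 0.01 to 0.0599), and against IL-13 without 12 h IFN-LPS replicate 1 or 2 or IL-13 replicate 1 or 3 (-0.66 to -0.47, adjusted p from 0.0116 to 0.032). That of Rc3h1 against IL-4 was lost without 12 h IFN-LPS replicate 2 or 3 or IL-4 replicate 1 or 3 (-0.38 to -0.33, adjusted p from 0.0264 to 0.0535).

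In RAW264.7, LPS for 4 h raised 4 members and lowered 2, where 27.9% of the 9406 genes tested were called (15.1% higher, 12.8% lower). Past the study's fold cutoff for this line, a log2 fold change of 2, was 1 member, Zc3h12a, with 3.22% of all genes past it. With 2 samples a group, all 6 genes had separate ranges. The p-values here rest mostly on a spread shared over all genes and little on each gene's own samples. Zc3h12a went from 5.21 and 12.0 CPM to 72.9 and 76.6 CPM. Its log2 fold change was 3.17 (SE 0.191, adjusted p = 1.9e-59). Zc3h12c went from 59.0 and 50.4 CPM to 205 and 193 CPM (1.90, SE 0.108, adjusted p = 1.28e-66). Zfp36 went from 10.4 and 15.2 CPM to 35.4 and 35.0 CPM (1.5004, SE 0.203, adjusted p = 2.29e-12). These 3 rose 2.83-fold or more, and Rc3h1, from 92.0 and 73.6 CPM to 153 and 147 CPM, rose 1.86-fold (adjusted p = 3.64e-16). Zfp36l1 fell from 15.3 and 12.3 CPM to 4.38 and 3.12 CPM (-1.85, SE 0.346, adjusted p = 8.87e-07) and Zfp36l2 from 29.8 and 38.1 CPM to 15.1 and 13.5 CPM (-1.204, SE 0.200, adjusted p = 2.01e-08). For Zfp36l1, which had 9 and 11 counts after LPS, DESeq2 gave an adjusted p of 0.0101. The share of Zfp36 in the TTP family per kb went from 33.5% ± 4.49 to 79.0% ± 1.801 (SD, n = 2).

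Resting RAW264.7 was set against resting BMDMs in a fit of all 25 samples, where 65.6% of the 10612 genes tested were called (31.9% higher, 33.7% lower). In RAW264.7, 5 members were lower and 1, Zc3h12c, was higher. Zfp36 stood at 12.8 ± 3.40 CPM in RAW264.7 (n = 2) and 57.0 ± 5.28 CPM in BMDMs (n = 3), a log2 difference of -2.15 (adjusted p = 4.14e-11). Zfp36l1 differed by -2.07, Zfp36l2 by -2.04 and Zc3h12a by -1.74. The 3 TTP family genes were thus 4.13-fold to 4.45-fold lower, and were the members past a log2 difference of 2, as were 23.0% of all genes. Zc3h12c was higher by 0.68 (adjusted p = 3.25e-05). Rc3h1 differed by -0.43 (adjusted p = 0.0026), a call lost without TMM scaling (-0.17, adjusted p = 0.223) and without BMDM control replicate 2 (-0.41, adjusted p = 0.0101), BMDM control replicate 3 (-0.35, adjusted p = 0.0254) or RAW264.7 control replicate 2 (-0.28, adjusted p = 0.121). The cell line and the tissue of origin, and any difference in culture, cannot be told apart here.

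Ranked over the 9 conditions by mean CPM, Zfp36 was highest at 1 h (736 ± 86.3), 8.83-fold above the next condition, 4 h IFN-LPS, and lowest in RAW264.7 control. IL-13, IL-4 and control BMDMs overlapped as neighbours in its order, as did 12 h IFN-LPS, LPS-treated RAW264.7 and 24 h IFN-LPS. Zfp36l1 had 1 h at the top (176 ± 6.27) and then IL-13, IL-4 and control BMDMs, which overlapped, before a gap of 4.21-fold to the remaining 5 conditions, each of which overlapped its neighbour. For Zfp36l2, control and 1 h overlapped at the top, the M2 groups overlapped below them, and 4 h IFN-LPS (10.5 ± 8.05) was lowest, overlapping LPS-treated RAW264.7. Zc3h12a and Rc3h1 both peaked at 4 h (213 ± 21.9 and 261 ± 24.8). In Zc3h12a all neighbours were apart but 24 h IFN-LPS and LPS-treated RAW264.7, and IL-4 and IL-13, and in Rc3h1 the 6 lowest conditions, from control BMDMs down, each overlapped the next. Zc3h12c had the 4 IFN-LPS times on top, with 4 h and 24 h overlapping. Between the highest and the lowest BMDM group the fold ran from 3.91 for Rc3h1 to 28.8 for Zfp36l1.

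The machinery with which these proteins act was examined through fixed lists, described by counts. Of 17 tested genes of CCR4-NOT and other deadenylation factors, 3 rose and 1 fell at 1 h, and 4 rose and 5 fell at 4 h. Over all genes, 26.0% were called at 1 h and 51.5% at 4 h, against which the counts of every list are to be read. For this list they were near that background. The median log2 fold change was 0.18 and -0.07, against -0.03 and -0.07 for all genes. Btg2 and Btg1, which bind the CAF1 deadenylase subunits, rose at 1 h by 3.51 and 1.90 (Btg2 from 38.7 to 452 CPM). Tob1, another adaptor of the deadenylase, was at 17.9 CPM in control BMDMs and fell at 4, 12 and 24 h, with log2 fold changes of -1.61, -2.498 and -1.26. Cnot6l, a catalytic subunit, fell at all 4 times, from 113 CPM in control to 59.1 CPM at 4 h, and the poly(A) ribonuclease Parn fell at 4 h (-1.004) and 12 h (-0.89). No gene of the list rose at 12 or 24 h. Without TMM scaling the list had 2 higher and 3 lower at 1 h and 2 higher and 9 lower at 4 h.

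Among 14 tested genes of decapping and 5′ decay, 0 rose and 1, Edc3, fell at 1 h (-0.78), while at 4 h 4 rose and 0 fell, with a median of 0.25. Dcp2, the decapping enzyme, rose 6.62-fold at 4 h, from 61.0 to 420 CPM, and was still higher at 12 h (176 CPM) and 24 h (109 CPM). Xrn1, the 5′ exonuclease, rose by 1.65 and Dcp1a, the activator of Dcp2, by 1.19 at 4 h, and Lsm4 by 0.55, which was 0.02 without TMM scaling. In that scaling the list had 3 higher and 2 lower at 4 h and a median of -0.28. Of 14 tested exosome genes, the 3′ exonuclease complex and its cofactors, 0 passed the test in either direction at 1 h. At 4 h 1 rose and 2 fell, with a median of 0.07, and without TMM scaling 0 were higher and 5 lower. In resting RAW264.7, 14 of 15 exosome genes were higher than in resting BMDMs, with and without TMM scaling, where 31.9% of all genes were higher, and the median was 1.54 against -0.06 for all genes. Of 6 partners of the regulators and members of the p38 pathway, Dusp1, a phosphatase of p38, rose from 49.8 to 2357 CPM at 1 h (log2 fold change 5.53) and was at 125 CPM at 4 h. Malt1 rose from 63.7 to 257 CPM at 1 h and 884 CPM at 4 h, and Mapkapk2 from 197 to 690 and 1981 CPM. At 4 h the log2 fold changes of Malt1 and Mapkapk2 (3.74 and 3.27) were above that of Dusp1 (1.27). These were the 3 genes of the list that rose at each of the 2 times, with and without TMM scaling.

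Of 9 other proteins that bind AU-rich or stem-loop elements, 3 rose at 1 h and 0 fell, and 4 rose and 1 fell at 4 h (medians 0.21 and 0.38). Without TMM scaling these counts were 1 and 0 at 1 h and 2 and 2 at 4 h. Arid5a, which protects Il6 mRNA from Regnase-1, was at 5.56 CPM in control BMDMs and 11.3 CPM at 1 h, a call that did not hold without TMM scaling, and reached 95.5 CPM at 4 h (log2 fold change 4.03) before standing at 14.0 CPM at 12 h. Its control level alone would not have passed the filter on low counts. Arid5a was thus tested only because it was high after stimulation, so its direction against control was fixed. The counts of this list include it. Cpeb4, a poly(A)-controlling RNA-binding protein, rose at 1 h (0.97) and 4 h (1.92). Elavl1, the mRNA-stabilizing protein HuR, rose by 0.52 and 0.73, and neither call held without TMM scaling (0.33 and 0.20).

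Of 13 transcripts known as targets of these proteins, 12 were tested in the time course and all 12 were called higher at 1 h and at 4 h, where 14.7% and 26.0% of all genes were. Among them, Il6, Il23a, Il10, Cxcl1, Il12b and Cxcl2 had at most 4 counts over the 3 control libraries, and Ier3 had 24. All of these could pass the filter on low counts only through the stimulated groups, so their direction was fixed. The other genes (Tnf, Ccl3, Ptgs2, Nfkbiz and Nfkbid) had log2 fold changes from 3.12 to 8.37 at 1 h and from 1.12 to 8.54 at 4 h. The lowest of the latter, of Nfkbid, was not called without TMM scaling (0.59, adjusted p = 0.0129). Tnf went from 28.2 CPM in control BMDMs to 9517 CPM at 1 h and 10942 CPM at 4 h, and its step from 1 h to 4 h did not pass the test (0.18, adjusted p = 0.0728). Cxcl1 had 1 count in the 3 control libraries and was at 616 CPM at 1 h, a ratio of scaled CPM of 3457 with a 95% counting interval of 620.1 to 136603. Il6 had 0 control counts, and its level at 4 h was at least 1277-fold higher than 3 counts over the control group. From 1 h to 4 h, 4 of the 12 rose further (Ccl3, Ptgs2, Il6 and Il12b) and 5 fell (Ier3, Cxcl1, Il23a, Nfkbiz and Nfkbid). Of all genes, 19.8% rose and 19.1% fell in this step. At 12 h and at 24 h 10 of the 12 were called above control, where 23.9% of all genes were at each time. The same limit holds on Ier3 and the genes with at most 4 control counts. In RAW264.7, the 9 tested were called higher after LPS, where 15.1% of all genes were. But Il6, Csf2 and Cxcl2 had 0, 4 and 7 counts over the 2 control libraries. They passed the filter only through the LPS samples, so their direction was fixed too. With IL-4, 1 of the 6 tested, Ier3, was higher than control and 2 were lower, where 4.38% and 3.25% of all genes were. With IL-13 1 was higher and 3 were lower, where 5.61% and 4.49% of all genes were. In this fit too, Ier3 could pass the filter only through the cytokine groups, so its direction was fixed.

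**Figure D4:**
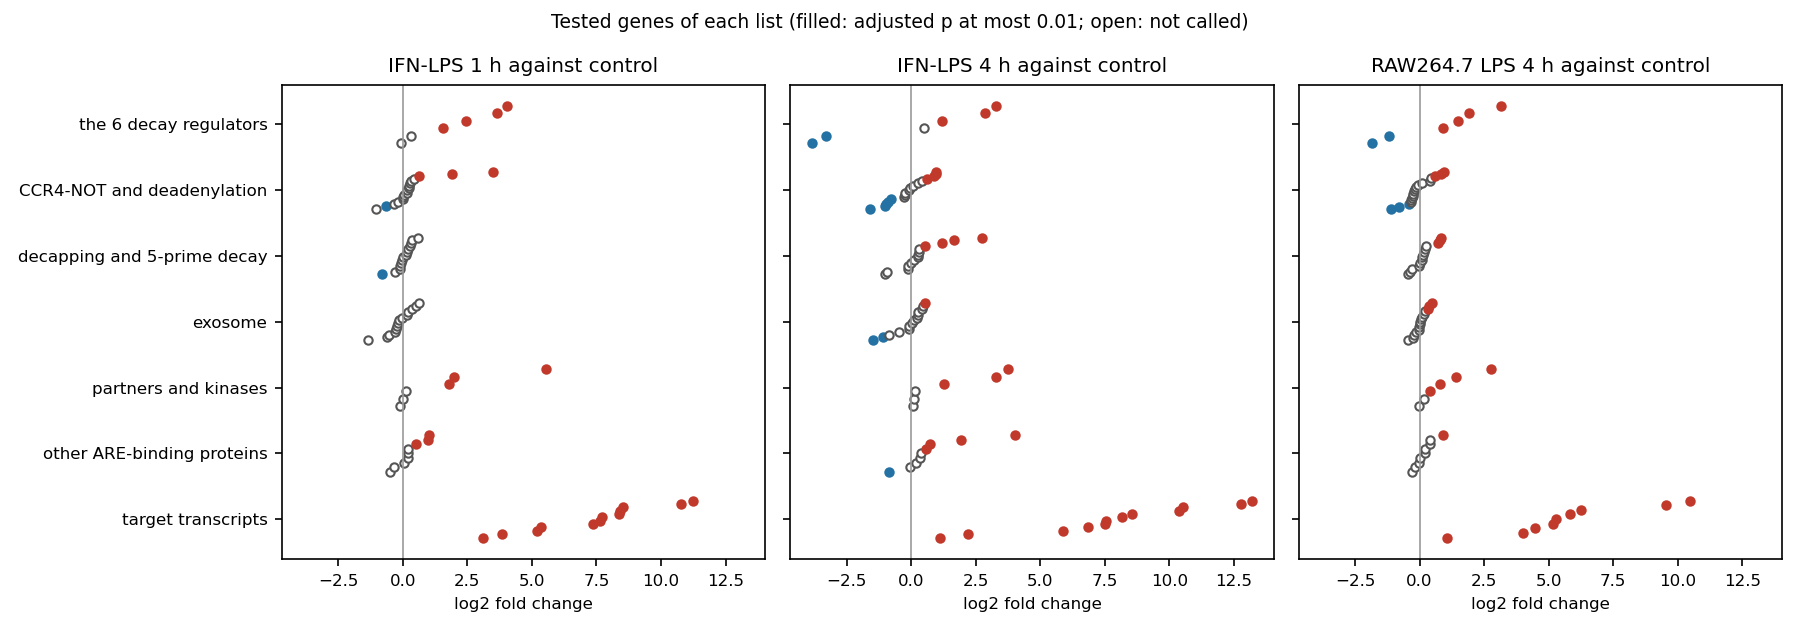
log2 fold change of every tested gene of the 6 regulators and of 6 related lists, for 1 h and 4 h of IFN-LPS in BMDMs and 4 h of LPS in RAW264.7 against their controls; each point is a gene, filled where the adjusted p was at most 0.01 (red higher, blue lower). The tested target transcripts were higher, most exosome genes were not called, and the regulators spread from -3.83 to 3.29 at 4 h. In BMDMs all of the 12 target transcripts but Tnf, Ccl3, Ptgs2, Nfkbiz and Nfkbid could be tested only because they were high after stimulation. In RAW264.7 this held for 3 of 9. Arid5a, in the list of other ARE-binding proteins, had the same limit in BMDMs.

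Over the 7 BMDM groups, the pattern of each member's mean log2 CPM was set against those of 5734 genes with a span of at least 1. These correlations have 7 points that share libraries and are descriptions. The nearest to Zfp36 were Pnrc1 (r = 0.991), Dnajc3 (0.988) and Extl2 (0.982), and 12 genes in all exceeded 0.95. The nearest to Zfp36l1 were Nlrp1c-ps, Topbp1 and Tnfrsf21 (0.994, 0.992 and 0.988), and those to Zfp36l2 Jmy, Wdr62 and Tec (0.996, 0.995 and 0.994), with 147 genes over 0.95. Zc3h12a was followed by Srsf3, H2-DMa and Ciita (0.996, 0.987 and 0.980). Zc3h12c was followed by Hyou1, Mir155hg and Nfkbia (0.994, 0.989 and 0.987), and Rc3h1 by Ino80d, Ppfibp1 and Scap (0.995, 0.993 and 0.986). Among the members themselves, Zfp36l1 and Zfp36l2 had the highest r (0.927), next Zc3h12a and Zc3h12c (0.894), while Zfp36l2 and Zc3h12a had the lowest (-0.649).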

How the data were processed

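RNA of 25 samples was sequenced from directional, ribosome-depleted libraries. The authors trimmed reads with Trimmomatic 0.33, aligned them to mm10 with STAR 2.5.1 (base calling by CASAVA 1.8.2) and deposited raw counts per gene. The annotation release was not given in the sources used here. The sense-strand column was used. Reads assigned to no gene made up 62.7% to 69.1% and stayed out. Rn45s was left out of the library sizes. Fits used edgeR 4.0.16 (limma 3.58.1, R 4.3.3; filterByExpr, TMM, robust quasi-likelihood test, Benjamini-Hochberg adjustment over all genes tested), with calls at an adjusted p of at most 0.01, and DESeq2 1.42.0 as an alternative. The study used DESeq2 too. The procedure was tested on simulated data. Figures were drawn with matplotlib 3.10.9. Samples were grouped by their labels. The 6 genes and all lists were chosen with earlier results of these data known. Besides the 6 genes, up to 4 called genes per list and comparison with the largest fold change and at least 5 CPM in the higher group, and the 3 genes most alike to each member, are named. Motifs were read from RefSeq promoters. Alternatives were DESeq2, no filter, unstranded counts, Rn45s kept, no TMM, a replicate block, other samples in the fit and leaving out each sample. BMDMs were biological triplicates. Where separate cultures are not stated (RAW264.7), p-values measure at most the spread between samples. With 2 samples a group, those of RAW264.7 rest mostly on a spread shared over all genes. The deposited counts hold no comparison columns, and intervals and limits of counts cover counting error only.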

Additional observations from a re-analysis of the deposited data

Results flagged for a closer look

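Antisense reads were counted in the authors' separate column, which no comparison above used. At 4 h of IFN-LPS, 3.50% of the reads on Zfp36 were antisense (11 antisense against 303 sense counts, exact 95% interval 1.76% to 6.18%), with 3, 4 and 4 in the 3 samples. In control BMDMs the share was 0.313% (1 against 318). At 24 h of IFN-LPS, 4.71% of the reads on Zfp36l2 were antisense (9 against 182, interval 2.18% to 8.76%), with 2, 2 and 5 in the 3 samples, against 0.255% in control (2 against 781). Both are shares of few reads and were picked out of 6 genes and 9 conditions for exceeding the control share. The antisense share over all genes lay between 1.02% and 1.41% in every BMDM group. Whether these reads come from antisense transcripts was not tested.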

How the results depend on the processing

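No direction of a called change was reversed by any alternative, and 594 counts of called members stayed within 1.5 times their value and 10 did not. Without TMM scaling, the number of members higher was 1 from 1 h to 4 h and 1 from 12 h to 24 h of IFN-LPS. With DESeq2, 1 member was lower in LPS-treated RAW264.7, where it called 734 of 9597 genes higher and 425 lower. The main test had called 1418 of 9406 higher and 1207 lower. Leaving out a sample gave 1 to 2 members higher from 1 h to 4 h, 0 to 1 higher and 0 to 1 lower from 12 h to 24 h, and 2 to 4 lower at 12 h of IFN-LPS against IL-4. The cause was not tested. Same-numbered samples did not all deviate together (in the time course the correlations of their residuals ran from -0.0699 to 0.175 and averaged 0.0211). The average for samples of different numbers, -0.0106, is no separate reference, since the residuals were centred within each group. Whether the numbers mark a pairing cannot be settled from these values, and they are used here as names of samples only. A replicate block changed 1 call, Zfp36 at 4 h (0.50, adjusted p = 0.00484), which gave 4 members higher. That call was also made without the low-count filter (0.51, adjusted p = 0.00105), with all 21 BMDM samples (0.53, adjusted p = 0.00804) and with only the 2 groups compared (0.50, adjusted p = 0.00131), where Rc3h1 at 1 h was called as well (0.34, adjusted p = 0.00378). With Rn45s kept, Zfp36 at 12 h was not called (-0.64, adjusted p = 0.0106). DESeq2 did not call Rc3h1 at 12 h against IL-4 (-0.42, adjusted p = 0.0121) nor between the resting cells (-0.40, adjusted p = 0.011). The lowest levels rest on as few as 5 counts per sample, so small changes of Zfp36l1 and Zfp36l2 at 4 h and later were not detectable.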
